A study of Rattus norvegicus with 6 samples.

Results

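Complement is a system of plasma and tissue proteins that tags microbes, immune complexes and dying cells for removal. The classical, lectin and alternative routes meet at the cleavage of C3, from where the terminal components can assemble a pore in a membrane, and soluble and membrane-bound inhibitors hold each step in check. Most circulating components come from the liver, but macrophages, fibroblasts and cartilage cells also transcribe many of them. The genes described here are 38 names of complement components, receptors and regulators, listed by gene name, with earlier results of these data known. Of these, 34 were found among the 30562 genes of the count table, and no row carried the name C2, Mbl2, C5ar1 or Colec11, which were not analysed here.

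Bulk RNA of rat intervertebral disc tissue was sequenced in 6 libraries, 3 labelled Control and 3 labelled AF-PTK@LEV@SPP1. By the methods of the study, the rats were 12-week-old male Sprague-Dawley animals with a tail disc injured by needle puncture, so that both groups carried the injury, and the controls were injected with PBS. AF-PTK@LEV@SPP1 is a hybrid of siRNA-loaded liposomes and outer membrane vesicles of bacteria, with siRNA directed against Spp1. A linker cut by reactive oxygen species joins to it a targeting peptide for the annulus fibrosus, the outer ring of the disc. It was injected into the disc from 24 h after surgery, in 10 µL with 1 mg/kg of siRNA, and treatment ran for 8 weeks. The sample labels give wild-type rats but otherwise differ, with an untreated control, 14 days of treatment, and macrophages sorted from digested discs, in 1 passage said to be of mice. The comparison asks how transcription in the punctured disc differs with the vesicle.

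Spp1, the target of the siRNA, is given before the other genes. Its level was 8122, 4411 and 4417 normalized CPM (read counts rescaled for library size with edgeR's TMM method) in PBS replicates 1, 2 and 3. In replicates 1, 2 and 3 labelled AF-PTK@LEV@SPP1, called treatment-labelled below, it was 8054, 6903 and 8461. The target was thus no lower under the treatment label (log2 fold change 0.31, SE 0.37, edgeR adjusted p = 0.628), and the siRNA is described as one against the mouse gene. With such an siRNA, and with RNA measured in bulk, this level cannot decide whether the labels are right. Directions below are given relative to the labels.

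Total counts were 17942989, 16565291 and 17489851 in PBS and 17074981, 15560728 and 17855184 in the treatment-labelled libraries. At this depth 3 counts, taken as the smallest measurable level, equal 0.154 to 0.193 CPM, a limit that covers counting error only. PBS replicates 2 and 3 were nearly the same library. Over 14393 genes their counts varied 1.33 times as much as counting noise and 16 genes (0.111%) differed, whereas the other pairs within a group had ratios of 51.3 to 107. This pair was counted as 1 sample, which leaves n = 2 distinct PBS samples against n = 3, and the fit with 6 separate libraries is given beside it. An exact two-sided permutation test of 3 against 2 cannot go below p = 0.1, and C1s, C3ar1, Serping1 and Clu below were each at that value. So were C1r, C3, C8g, Cfb, Cfi, Masp2 and Colec12, none of them called by edgeR over 5 samples.

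The libraries carried the matrix genes of disc tissue. Col1a1, the main collagen of the annulus, stood at 31920, 44729 and 45053 CPM in PBS and at 64079, 45956 and 51253 under the treatment label. Tbxt, a notochord gene kept in nucleus pulposus cells, measured 142, 17.4 and 17.3 CPM in PBS and 757, 308 and 332 CPM under the treatment label, with no overlap (log2 fold change 2.54, SE 1.00, edgeR adjusted p = 0.195). Matn3, a cartilage matrix gene, measured 376, 349 and 338 CPM against 196, 176 and 89.8 CPM (log2 fold change -1.24, SE 0.34, edgeR adjusted p = 0.111 over 5 samples and 0.0365 with 6 libraries), and Cnmd and Col9a1 had log2 fold changes of -0.98 and -0.83 with overlap. The 8 nucleus pulposus and cartilage markers found (no row was named Krt19) summed to 20231 to 42420 CPM, led by Col2a1. Of these 8, edgeR and limma-voom called 0 over 5 samples, DESeq2 called 2, 2 had an unadjusted edgeR p under 0.05, and edgeR with 6 libraries called 1 lower (Matn3) and 0 higher. Of all 15537 genes tested, 25.4% had such a p and DESeq2 called 16.6%. The 11 fibroblast and annulus markers summed to 69403 to 120713 CPM, with 1 called lower by edgeR over 5 samples (Lum), beside 2.57% of all genes, 3 lower and 1 higher with 6 libraries, beside 9.93% and 8.2%, 5 of 11 at an unadjusted edgeR p under 0.05 and 6 called by DESeq2. Lum measured 2474, 5922 and 5954 CPM in PBS and 324, 444 and 436 CPM under the treatment label (log2 fold change -3.40, SE 0.43, edgeR adjusted p = 0.0303). Col3a1, Dcn and Pdgfra also had every treatment-labelled library below every PBS library, with log2 fold changes of -1.26, -0.91 and -0.84 that edgeR did not call over 5 samples. Pi16, Mkx, Col1a2 and Col1a1 had every treatment-labelled library above every PBS library, with log2 fold changes of 3.03, 1.25, 0.79 and 0.48, also not called over 5 samples. The median of the 11 was 0.13, and the part of fibroblast content in the complement values was not tested. The 13 macrophage markers together made up 2874, 2007 and 1993 CPM in PBS and 640.5, 1811 and 1849 CPM under the treatment label, with Lyz2 as the most abundant and Marco at 0 in all 6 libraries. The matrix lists thus took a larger share of the counts than the macrophage list in every library, although the labels speak of sorted macrophages.

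Among the 30 complement genes with enough counts to test, edgeR's quasi-likelihood test at a Benjamini-Hochberg adjusted p under 0.05 called 3 lower and 1 higher under the treatment label. C1s, C3ar1 and Serping1 were lower and Clu was higher. The 3 lower calls are 10% of the tested genes of the list, beside 2.57% of all 15537 genes tested, and the 1 higher call is 3.33%, beside 1.13%. With the 6 libraries kept separate, 7 were lower (23.3%, beside 9.93% of 15042 genes) and 2 higher (6.67%, beside 8.2%). DESeq2 over the 5 samples also called 7 lower (beside 9.27% of all genes) and 2 higher (beside 7.29%), and limma-voom called 3 and 1 (beside 2.03% and 0.895%). The direction of the list was mixed, with 18 negative and 12 positive log2 fold changes, a range of -3.21 to 2.00 and a median of -0.37, against 0.05 over all genes tested. In 10 of the 30 the treatment-labelled samples all lay below both PBS samples (33.3%, beside 21.9% of all genes), and in 4 all above (13.3%, beside 23.9%). Cfi passed the filter on low counts through the PBS samples alone and so had to differ. It is 1 of the 7 lower calls with 6 libraries, of the 7 by DESeq2 and of the 10 below both PBS samples. These counts are no support for a change of the list. No complement gene of the list was called by edgeR when any single treatment-labelled library was left out, although 7 to 8 then still had an unadjusted p under 0.05 in the lower direction. Across all genes, edgeR then called 113, 0 and 0 without replicates 1, 2 and 3 of that label. Every edgeR call over 5 samples given here, markers included, was thus lost without replicate 2 or 3. In these fits 3998, 3109 and 2699 of all genes (26.0%, 20.4% and 17.7%) had an unadjusted p under 0.05, in either direction. DESeq2 and limma-voom were not run with left-out libraries. The summed level of the 34 genes was 3809, 5194 and 5251 CPM in PBS and 4153, 3615 and 4108 CPM under the treatment label, groups that overlapped. This overlap depended on the genes summed, as without Clu and C1s, picked after the values were seen, the sums were 2763, 3385 and 3411 CPM against 2224, 2283 and 2378 CPM, so neither sum is read as a change of the list.

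**Figure D1:**
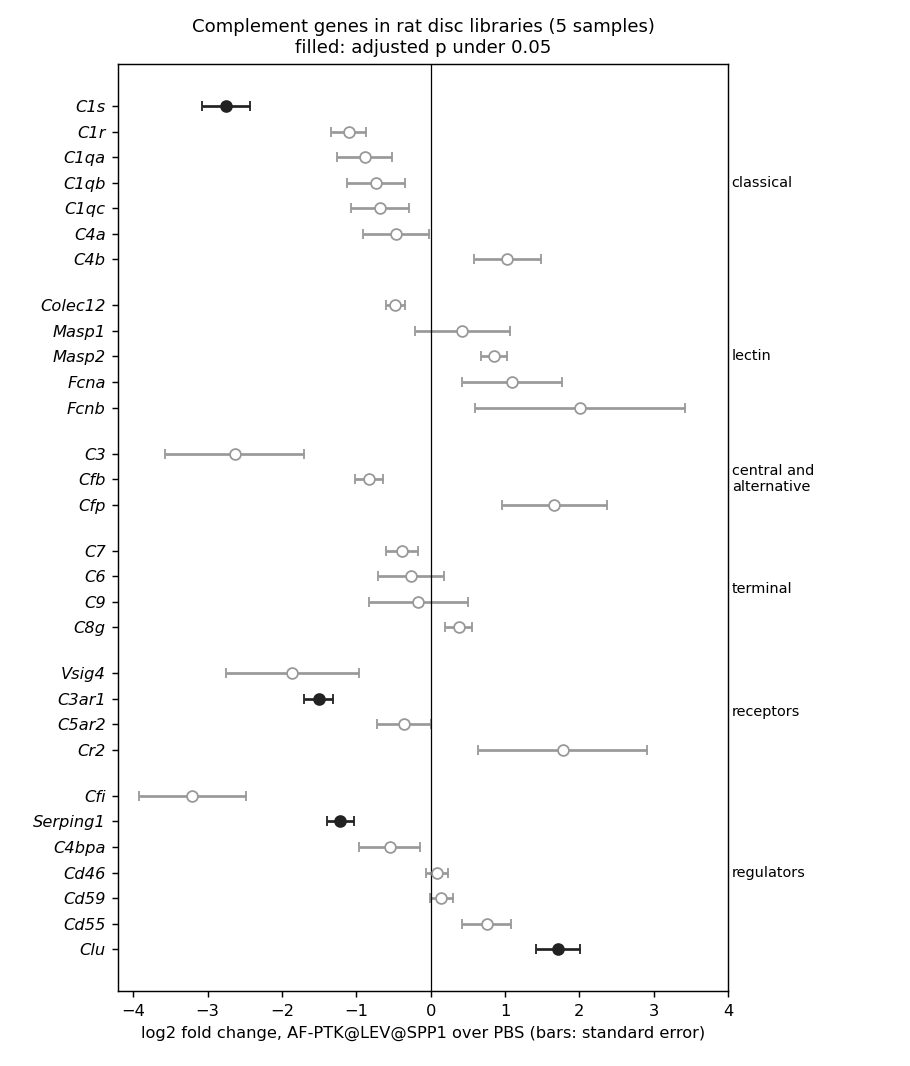
The log2 fold change of the 30 tested complement genes (horizontal axis; AF-PTK@LEV@SPP1 label over PBS, 5 distinct samples) is shown with bars for the standard error and grouped by role. Filled points mark the 4 genes called by edgeR, C1s, C3ar1 and Serping1 to the left of 0 and Clu to the right.

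On the classical route, C1s encodes the protease of the C1 complex that cleaves C4 and C2, and it fell under the treatment label. C1s (ENSRNOG00000011971) measured 678, 1268 and 1284 CPM in PBS replicates 1, 2 and 3 and 136, 127 and 176 CPM in the treatment-labelled libraries. Every treatment-labelled library was below every PBS library, with means of 146 ± 26.4 (SD, n = 3) and 977 ± 423 (SD, n = 2). The log2 fold change was -2.75 (SE 0.32, edgeR adjusted p = 0.0262), a 6.72-fold difference. Without replicate 1, 2 or 3 of the AF-PTK@LEV@SPP1 label its edgeR adjusted p was 0.0684, 0.0911 and 0.136, and without PBS replicates 2 and 3 together it was 0.0843. Without PBS replicate 1 it was 0.0277, but there, as in each fit without that replicate below, a lone PBS sample was assumed to vary like the other group.

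C1r encodes the partner protease that activates C1s. It stood at 370.1, 581 and 602 CPM in PBS and at 216, 213 and 247 CPM under the treatment label, again with no overlap. Its log2 fold change of -1.10 (SE 0.23) did not pass in edgeR over 5 samples (edgeR adjusted p = 0.0706) and passed with 6 libraries (0.0154), while DESeq2 called it over 5 samples (DESeq2 adjusted p = 0.000397). The ratio of C1s to C1r counts, chosen after the values were seen, was 1.83, 2.18 and 2.13 in PBS and 0.629, 0.597 and 0.713 under the treatment label. This ratio was lower in every treatment-labelled library, and the groups did not overlap. In the deposited table both genes lie on chromosome 4, C1r at 157412692 to 157423484 on the plus strand and C1s at 157430117 to 157442303 on the minus strand, and their spans do not overlap.

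C1qa, C1qb and C1qc encode the chains of C1q, the recognition molecule of the route, and lie together on chromosome 5. C1qa measured 129, 68.4 and 67.2 CPM in PBS and 37.9, 70.7 and 52.1 CPM under the treatment label. PBS replicate 1 was the highest library, AF-PTK@LEV@SPP1 replicate 1 the lowest, and the groups overlapped. The chains had log2 fold changes of -0.89, -0.73 and -0.68, none called (edgeR adjusted p = 0.209 to 0.327), and without PBS replicate 1 they were -0.36, -0.11 and -0.14. The libraries at either end were also the highest and lowest in the summed macrophage markers (2874 and 640.5 CPM), of which 4 of 12 tested were called lower by edgeR (Cd68, Cd14, Msr1 and Folr2), beside 2.57% of all genes. In bulk RNA, fewer cells of a type and less RNA per cell cannot be told apart, and the part of macrophage content in these values was not tested.

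C4a and C4b are near-identical copies of the gene for C4, whose cleavage product joins the C3 convertase of the classical and lectin routes. C4a measured 80.1, 221 and 214 CPM in PBS and 96.0, 91.9 and 138 CPM under the treatment label. C4b measured 58.3, 147 and 158 CPM in PBS and 259.9, 227 and 165 CPM under the treatment label. The groups overlapped for C4a, while for C4b every treatment-labelled library was above every PBS library. The log2 fold changes were -0.46 (SE 0.45, edgeR adjusted p = 0.550) and 1.03 (SE 0.45, edgeR adjusted p = 0.230), so neither copy was called. With libraries left out C4b ranged from 0.50 (without PBS replicate 1) to 1.89 (without PBS replicates 2 and 3 together). C4b held 42.2%, 39.9% and 42.4% of the C4a and C4b counts in PBS and 73.0%, 71.2% and 54.5% under the treatment label, a share also chosen after the values were seen. Their sum overlapped between the groups, at 138, 367 and 372 CPM against 356, 319 and 304 CPM. How reads shared by the copies were counted was not given in the sources used here, so the split between them is uncertain.

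The promoters of the C4 copies are shown because they are alike while the counts of the copies were split differently between the groups. Each is the 250 bases before the gene start from RefSeq (build GRCr8), C4a at chr20:4010107-4010356 and C4b at chr20:4201729-4201978, both on the plus strand. In the alignment 229 of 249 columns (92.0%) were identical, 12 held mismatches and 8 held gaps. Capitals mark the bases that differ from the other copy in this alignment.
C4a: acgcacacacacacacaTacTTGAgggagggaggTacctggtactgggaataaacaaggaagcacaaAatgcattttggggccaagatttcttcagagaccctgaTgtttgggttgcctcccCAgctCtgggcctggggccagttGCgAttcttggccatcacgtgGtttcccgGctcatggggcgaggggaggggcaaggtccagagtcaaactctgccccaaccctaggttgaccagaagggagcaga
C4b: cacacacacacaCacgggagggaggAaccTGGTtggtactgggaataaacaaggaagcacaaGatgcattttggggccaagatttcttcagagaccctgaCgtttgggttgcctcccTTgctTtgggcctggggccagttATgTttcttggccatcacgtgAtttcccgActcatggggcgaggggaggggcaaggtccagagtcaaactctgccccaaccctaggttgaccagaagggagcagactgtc

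The lectin branch genes encode sugar-binding recognition proteins and the proteases bound to them. None of the 5 tested was called by edgeR or limma-voom over 5 samples, 2 had an unadjusted edgeR p under 0.05 (25.4% of all genes did), and DESeq2 called 2 (16.6% of all genes), Masp2 and Colec12 (DESeq2 adjusted p = 0.00169 and 0.00259). Masp2, the protease that cleaves C4 and C2 on this route, measured 6.06, 5.60 and 5.31 CPM in PBS and 9.94, 9.96 and 11.4 CPM under the treatment label. Every treatment-labelled library was above every PBS library. The log2 fold change was 0.85 (SE 0.17), with an edgeR adjusted p of 0.0646 over 5 samples and 0.0119 with 6 libraries. Colec12, a membrane scavenger receptor of the collectin family, measured 227, 191 and 192 CPM in PBS against 146, 154 and 153 CPM, with no overlap. Its log2 fold change of -0.48 (SE 0.13) passed in edgeR with 6 libraries (edgeR adjusted p = 0.0381) and not over 5 samples (0.103).

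Masp1, the protease that activates Masp2, ranged from 103 to 504 CPM, with its lowest library in PBS and its highest under the treatment label, and overlapped between the groups (log2 fold change 0.43, SE 0.64). Its span shares 579 bases with Rtp4 on the opposite strand, and whether strand was used in counting is not given. The ficolins followed a different pattern. Fcnb measured 25.7, 2.89 and 2.87 CPM in PBS and 5.06, 79.3 and 86.5 CPM under the treatment label. Fcna measured 19.6, 9.01 and 9.04 CPM in PBS and 11.1, 47.1 and 33.7 CPM under the treatment label. Replicates 2 and 3 of the AF-PTK@LEV@SPP1 label were high, replicate 1 was not, and PBS replicate 1 lay above the other PBS libraries, so the groups overlapped. The log2 fold changes were 2.00 (SE 1.41) for Fcnb and 1.10 (SE 0.67) for Fcna, neither called (edgeR adjusted p = 0.417 and 0.358). Without PBS replicate 1 they were 4.28 and 1.74, and without PBS replicates 2 and 3 together 1.14 and 0.64. Mbl1, a mannose-binding lectin made mainly in liver, had 0 counts in each PBS library and 1 in each of the others, under the measurable level.

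The 10 neutrophil markers put the libraries in the same order as Fcnb, with sums of 1203, 194 and 182 CPM in PBS and 315, 3105 and 4202 CPM under the treatment label. Of these, S100a9 measured 457, 85.0 and 78.3 CPM against 107, 1060 and 1487 CPM. It was the most abundant marker except in PBS replicate 1 and AF-PTK@LEV@SPP1 replicate 3, where S100a8 was higher (475 and 1490 CPM). None of the 9 tested was called by edgeR, DESeq2 or limma-voom, and 0 had an unadjusted edgeR p under 0.05. Fcna had another order, with AF-PTK@LEV@SPP1 replicate 2 (47.1 CPM) above replicate 3 (33.7 CPM). The part of neutrophils, or of other cells, in the ficolin values was not tested.

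None of the 3 central and alternative components was called by edgeR or limma-voom over 5 samples, although 2 had an unadjusted edgeR p under 0.05, beside 25.4% of all genes, and DESeq2 called 1, beside 16.6%, Cfb (DESeq2 adjusted p = 0.00123). C3 encodes the protein on which all routes meet. It measured 211, 537 and 537 CPM in PBS and 9.82, 78.2 and 93.9 CPM under the treatment label. No library overlapped between the groups, yet AF-PTK@LEV@SPP1 replicate 1 lay far below its companions and PBS replicate 1 below its own. With this spread the log2 fold change of -2.64 had an SE of 0.94 and was not called, over 5 samples or 6 libraries (edgeR adjusted p = 0.168 and 0.0633). With libraries left out it ranged from -3.16 (without PBS replicate 1) to -1.81 (without PBS replicates 2 and 3 together). Cfb encodes factor B, the protease of the alternative C3 convertase. It measured 298, 267 and 271 CPM in PBS and 152, 194 and 136 CPM under the treatment label, with no overlap. Its log2 fold change of -0.83 (SE 0.19) passed with 6 libraries (edgeR adjusted p = 0.0203) and not over 5 samples (0.0782). The row for Cfb spans 25032 bases, and C2, its neighbour in the RefSeq gene table, has no row of its own, so reads of C2 in this row were not tested.

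Cfp encodes properdin, which stabilizes the alternative convertase and is stored in neutrophils. It measured 21.4, 5.98 and 5.56 CPM in PBS and 20.4, 55.7 and 52.9 CPM under the treatment label. Replicates 2 and 3 of the AF-PTK@LEV@SPP1 label were high, as for Fcnb and the neutrophil markers (3105 and 4202 CPM), and replicate 1 was level with PBS replicate 1. The log2 fold change was 1.67 (SE 0.71, edgeR adjusted p = 0.220). It was 2.88 without PBS replicate 1 and 0.997 without PBS replicates 2 and 3 together. The part of neutrophil content was not tested.

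**Figure D2:**
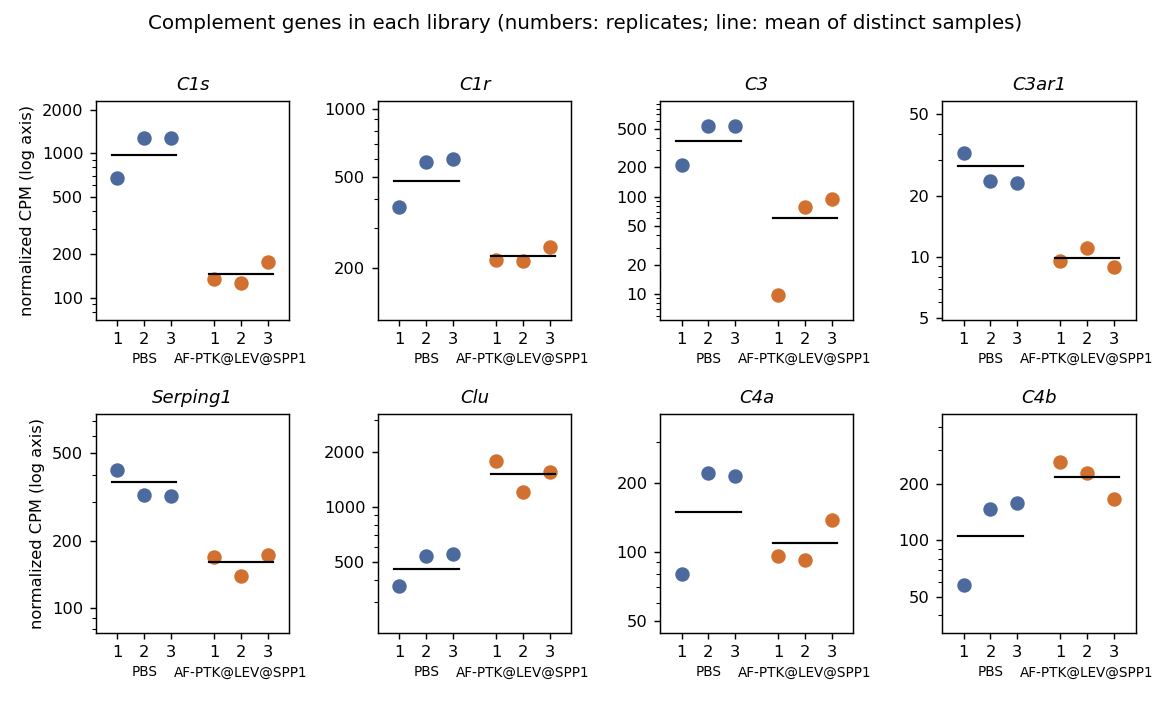
Normalized CPM (log axis) of 8 complement genes in each library, by replicate number, for PBS (blue) and the treatment-labelled libraries (orange), with a line at the mean of the distinct samples. For C1s, C1r, C3, C3ar1 and Serping1 all orange points lie below all blue points, for Clu and C4b all lie above, and for C4a the groups overlap.

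The terminal components C5 to C9 form the membrane attack complex, and most of them had few counts in these libraries. None of the 4 tested was called by edgeR, DESeq2 or limma-voom, with 0 at an unadjusted edgeR p under 0.05 and log2 fold changes from -0.39 to 0.38. C7 was the most counted of them, at 115, 93.0 and 91.2 CPM in PBS and 60.7, 87.1 and 91.2 CPM under the treatment label, and its row is typed as a pseudogene in the table. C6 overlapped between the groups at 14.4 to 38.6 CPM, and C9 stood at 0.308 to 0.901 CPM. C8g lay between 5.19 and 7.88 CPM and shares 953 bases with Fbxw5 on the opposite strand. C5 had 1 to 7 counts per library and was not tested. C8a had 1, 12 and 11 counts in PBS and 0 in each treatment-labelled library, and C8b had 1, 11 and 8 against 0. Against 3 counts per library these are at least 2.19-fold and 1.84-fold lower, with PBS replicate 1 itself at 1 count for both genes.

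Among the receptors, C3ar1 encodes the receptor of C3a, the small fragment released from C3, and is expressed on myeloid cells. C3ar1 (ENSRNOG00000009211) fell under the treatment label. It measured 32.4, 23.7 and 23.0 CPM in PBS and 9.58, 11.1 and 8.89 CPM in the treatment-labelled libraries. The libraries of each group lay close together and apart from the other group, with means of 27.9 ± 6.41 (SD, n = 2) and 9.86 ± 1.13 (SD, n = 3). This is a log2 fold change of -1.51 (SE 0.19, edgeR adjusted p = 0.0303), or a 2.84-fold difference. Left out in turn, PBS replicate 1 and replicates 1, 2 and 3 of the AF-PTK@LEV@SPP1 label each ended the call (edgeR adjusted p = 0.0691, 0.0705, 0.0845 and 0.150). Among the macrophage markers Cd14 measured 152, 134 and 134 CPM in PBS and 38.2, 36.1 and 41.5 CPM under the treatment label, and Cd68 measured 150.0, 112 and 116 CPM against 28.5, 42.1 and 30.9 CPM. Both were called lower (edgeR adjusted p = 0.0119 and 0.0231). Csf1r, Mrc1 and Fcgr1a also had every treatment-labelled library below every PBS library, with log2 fold changes of -0.96, -0.96 and -0.79. EdgeR called none of them over 5 samples, and only Mrc1 with 6 libraries (edgeR adjusted p = 0.0160). Other markers of the list differed from these: Cd163 measured 54.0, 29.5 and 29.0 CPM in PBS and 47.2, 143 and 88.3 CPM under the treatment label, and Cd163, Timd4, Lyz2, Aif1 and Adgre1 overlapped between the groups, with log2 fold changes of 1.15, 0.43, -0.68, -0.36 and -0.75, none called by edgeR. Whether C3ar1 changed apart from macrophage content was not tested.

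Vsig4, a C3b receptor of resident macrophages, was near the measurable level, at 3.29, 0.322 and 0.855 CPM in PBS and 0.235, 0.422 and 0.912 CPM under the treatment label. PBS replicate 1 alone was high, and the log2 fold change of -1.86 (SE 0.90) was not called (edgeR adjusted p = 0.262) and was -0.20 without that library. Cr2, the C3d receptor of B cells, measured 1.13, 0.129 and 0.0611 CPM in PBS and 0.647, 2.78 and 2.62 CPM under the treatment label. The groups overlapped, and the log2 fold change of 1.77 (SE 1.13) was not called (edgeR adjusted p = 0.373). It was 4.32 without PBS replicate 1 and 0.82 without PBS replicates 2 and 3 together. The value of 4.32 is no exact fold, as PBS replicates 2 and 3 had 2 and 1 counts, under the measurable level. The 6 B cell markers summed to 66.4, 11.5 and 8.55 CPM in PBS and 31.5, 76.0 and 111 CPM under the treatment label. Blnk was the highest of them in PBS and in AF-PTK@LEV@SPP1 replicate 1, and Cd79a in replicates 2 and 3 of that label. Of the markers, 0 of 6 were called by edgeR, DESeq2 or limma-voom and 0 had an unadjusted edgeR p under 0.05. Their part in the Cr2 values was not tested. C5ar2, a receptor of C5a, overlapped between the groups at 24.9 to 63.2 CPM (log2 fold change -0.35, SE 0.36). Its row spans 29135 bases, C5ar1 has no row of its own, and reads of C5ar1 in this row were not tested.

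**Figure D3:**
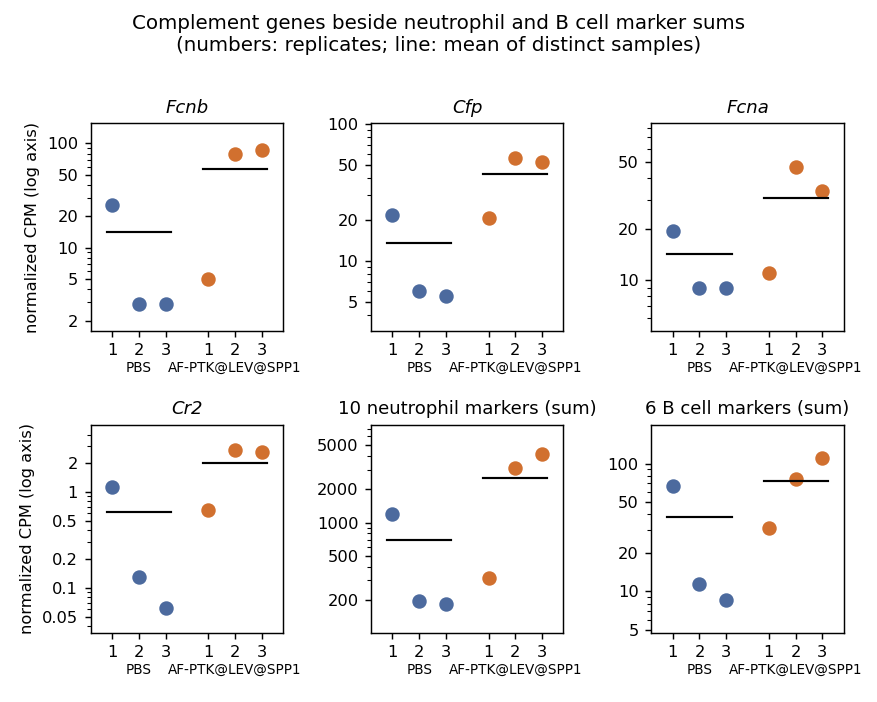
Normalized CPM (log axis) of Fcnb, Cfp, Fcna and Cr2 and the summed CPM of 10 neutrophil and 6 B cell markers in each library, by replicate number, for PBS (blue) and the treatment-labelled libraries (orange), with a line at the mean of the distinct samples. In each panel replicates 2 and 3 of the orange group are the highest libraries and PBS replicates 2 and 3 the lowest.

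Of the regulators, Clu rose and Serping1 fell under the treatment label, and edgeR called none of the other 5 regulators over 5 samples, while DESeq2 called 3 of the 7 (16.6% of all genes). The third was Cfi (DESeq2 adjusted p = 0.00869), which passed the filter through PBS alone and so had to differ. Clu encodes clusterin, a secreted chaperone that binds the terminal complex and keeps it out of membranes. Clu (ENSRNOG00000016460) measured 368, 541 and 555 CPM in PBS and 1793, 1205 and 1553 CPM in the treatment-labelled libraries. All treatment-labelled libraries were above all PBS libraries, with means of 1517 ± 296 (SD, n = 3) and 458 ± 127 (SD, n = 2). The log2 fold change was 1.72 (SE 0.30, edgeR adjusted p = 0.0493), a 3.29-fold difference that was close to the threshold. Under RLE normalization its edgeR adjusted p was 0.0507. Without PBS replicate 1 or 2 it was 0.122 and 0.0504, and without replicates 1, 2 and 3 of the AF-PTK@LEV@SPP1 label it was 0.0883, 0.0967 and 0.177.

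Serping1 encodes the C1 inhibitor, which inactivates C1r, C1s and the lectin-bound proteases. Serping1 (ENSRNOG00000007457) measured 418, 323 and 319.9 CPM in PBS and 169, 138 and 173 CPM in the treatment-labelled libraries. The groups did not overlap, with means of 369.7 ± 68.2 (SD, n = 2) and 160.4 ± 19.1 (SD, n = 3). Its log2 fold change of -1.21 (SE 0.18, edgeR adjusted p = 0.0393) is a 2.32-fold difference. The call was lost without PBS replicate 1 (edgeR adjusted p = 0.0902) and without replicates 1, 2 and 3 of the AF-PTK@LEV@SPP1 label (0.0781, 0.103 and 0.159). The inhibitor and both of its C1 targets, C1r and C1s, thus had lower values in all treatment-labelled libraries than in PBS, with C1r called over 5 samples by DESeq2 and not by edgeR.

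Cfi encodes factor I, the protease that degrades C3b and C4b. It had 24, 29 and 38 counts in PBS and 2, 6 and 1 under the treatment label, or 1.23, 1.87 and 2.32 CPM against 0.118, 0.362 and 0.0570 CPM. The treatment-labelled libraries lay around the level of 3 counts, and the log2 fold change of -3.21 (SE 0.72) passed with 6 libraries (edgeR adjusted p = 0.0190) and not over 5 samples (0.0779). With single libraries left out it ranged from -4.18 (without AF-PTK@LEV@SPP1 replicate 2) to -2.78 (without replicate 3). As Cfi passed the filter through PBS alone and so had to differ, these values are no support for a change. The membrane-bound regulators Cd55, Cd59 and Cd46, which protect host cells, had log2 fold changes of 0.75, 0.14 and 0.08, and their groups overlapped. Cd59 and Cd46 varied little, at 115 to 149 CPM and 114 to 146 CPM over the 6 libraries. C4bpa, a subunit of the C4b-binding protein, was at 0.882 to 2.41 CPM with a log2 fold change of -0.55.

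Other cell types of the tissue were followed with marker lists. The 7 adipocyte markers summed to 412, 67.4 and 71.4 CPM in PBS and 1069, 1684 and 735 CPM under the treatment label, led by Fabp4 (239, 47.3 and 52.5 CPM against 544, 757 and 398 CPM, log2 fold change 1.97, SE 0.72, edgeR adjusted p = 0.175). The 6 endothelial markers, led by Pecam1, summed to 498, 601 and 585 CPM against 375, 438 and 435 CPM. The 5 erythroid markers, led by Hba-a1, summed to 2341, 3182 and 3272 CPM against 2468, 19827 and 13782 CPM. The 4 muscle markers found, led by Myh4 in PBS and by Acta1 under the treatment label, summed to 773, 991 and 1007 CPM against 790, 8146 and 2085 CPM. The 6 hepatocyte markers, whose cells make most plasma complement, summed to only 1.39, 1.35 and 1.53 CPM in PBS and 9.29, 2.65 and 5.19 CPM under the treatment label, with Alb at 0 in the PBS libraries. No gene of these 5 lists was called by edgeR or limma-voom over 5 samples. With 6 libraries edgeR called 3 endothelial genes lower (Pecam1, Cdh5 and Vwf), beside 9.93% of all genes. It then called 1 adipocyte gene (Lep) and 1 hepatocyte gene (Serpina1) higher, beside 8.2%. At an unadjusted edgeR p under 0.05 there were 5 adipocyte, 3 endothelial, 1 erythroid, 0 muscle and 1 hepatocyte genes of the 7, 6, 5, 4 and 1 tested, and DESeq2 called 5, 2, 2, 0 and 1, beside 25.4% and 16.6% of all genes. The part of tissue makeup in the results for C1s, C3ar1, Serping1 and Clu was not tested.

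A list of 20 further genes that act beside complement gave 19 rows (none named Cr1l), of which 14 were tested. By edgeR 1 was called lower and 0 higher over 5 samples, beside 2.57% and 1.13% of all genes, and 4 lower and 1 higher with 6 libraries, beside 9.93% and 8.2%. DESeq2 called 5 over 5 samples, beside 2572 of all 15537 genes (16.6%). Ptx3, a pentraxin that binds C1q, measured 25.1, 28.4 and 29.1 CPM in PBS and 9.35, 8.57 and 6.33 CPM under the treatment label. It fell with no overlap, with a log2 fold change of -1.75 (SE 0.21, edgeR adjusted p = 0.0260), although its whole span of 5811 bases lies within Veph1 on the opposite strand, which had 10 to 55 counts. Cd93, a membrane protein first described as a C1q receptor, measured 194, 273 and 281 CPM against 108, 100 and 128 CPM, and passed with 6 libraries (edgeR adjusted p = 0.0115) and not over 5 samples (0.0581). Colec10, a secreted collectin of the lectin route, measured 0.411, 1.29 and 1.71 CPM in PBS and 19.5, 7.30 and 18.8 CPM under the treatment label. Its log2 fold change of 3.91 (SE 0.75) passed with 6 libraries (edgeR adjusted p = 0.0129) and not over 5 samples (0.0587). Calr, Pros1 and C1qbp had log2 fold changes of -0.68, -0.71 and -0.39, and the first and second of these passed with 6 libraries (edgeR adjusted p = 0.0201 and 0.0367).

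RefSeq promoters of 250 bases (build GRCr8) were matched for 20 of the 30 tested genes, those of C1s, Serping1 and Clu not among them. The letters TTGCNNAA, a C/EBP-type motif searched on both strands, were in 5 of the 20 (C6, Fcnb, C1r, C3 and C4bpa) and in 9.22% of 33469 promoters. A STAT-type motif, TTCNNNGAA, was in 3 of the 20 (C5ar2, C1qa and Vsig4) and in 7.67% of all, and the interferon-stimulated response element (ISRE) was in 0 of the 20 and in 3.41% of all. The NF-κB motif was in 1 (C1qb) and in 6.33% of all. A match is a run of letters, not a site shown to be bound. The promoters of C3 (chr9:2201340-2201589, minus strand) and C1r (chr4:159098763-159099012, plus strand) are shown as those of the central component and of a C1 protease, with the C/EBP-type letters in capitals. Neither held the letters of the other 3 motifs.
C3: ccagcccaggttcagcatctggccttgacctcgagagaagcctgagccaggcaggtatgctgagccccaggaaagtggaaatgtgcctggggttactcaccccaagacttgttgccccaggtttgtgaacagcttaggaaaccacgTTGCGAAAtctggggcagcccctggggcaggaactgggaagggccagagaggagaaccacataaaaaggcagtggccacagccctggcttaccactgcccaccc
C1r: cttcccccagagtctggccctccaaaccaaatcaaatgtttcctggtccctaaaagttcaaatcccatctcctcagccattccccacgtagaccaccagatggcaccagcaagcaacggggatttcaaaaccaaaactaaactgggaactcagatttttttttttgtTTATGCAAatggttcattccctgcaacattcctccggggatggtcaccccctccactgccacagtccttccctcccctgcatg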

How the data were processed

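RNA of the 6 libraries was counted by the submitters: the authors deposited raw counts, 1 whole number per Ensembl rat gene and library, without normalization. The submitters' processing notes name FastQC, Trimmomatic, HISAT2, featureCounts and DESeq2 and the mouse build mm10, whereas identifiers and positions are of rat. The labels name a NovaSeq instrument and the study a HiSeq. Versions, strand use and the handling of shared reads were not given in the sources used here, and positions are printed as deposited. Columns named IVD were taken as the Control libraries and columns named AFPTK as the AF-PTK@LEV@SPP1 libraries, by name and replicate number.

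Gene counts entered edgeR 4.0.16, run under R 4.3.3 (TMM normalization, filterByExpr with a minimum count of 10, quasi-likelihood test) on all genes, with PBS replicates 2 and 3 summed. P-values were adjusted (Benjamini-Hochberg) over all genes tested, and SE is the absolute log2 fold change over the square root of F. CPM per library used TMM factors of the 6 libraries. The study describes 3 independent animals per group, while PBS replicates 2 and 3 were nearly identical. Alternatives used DESeq2 1.42.0 and limma-voom (limma 3.58.1), other scaling, no filter, left-out libraries and a replicate block, and the fits were tested on simulated data. Values in every library are given for the complement genes of the main list called over 5 samples or 6 libraries, for uncalled genes with an absolute log2 fold change of at least 1, and for the 3 with the highest CPM. Other values printed per library were chosen after they were seen. A macrophage marker was left out and is not reported here. Of the further list the 6 genes with the smallest adjusted p are named. The table has no gene lengths, so where genes or lists are ranked it is by CPM, a share of counts, and not by level per length. The members and lists were chosen with earlier results of these data known.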

Additional observations from a re-analysis of the deposited data

How the results depend on the processing

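Over 5 samples edgeR called 3 complement genes lower and 1 higher. With 6 separate libraries it called 7 and 2, and DESeq2 on the 5 samples also called 7 and 2, while RLE normalization gave 3 lower and 0 higher (Clu, edgeR adjusted p = 0.0507, with 2 higher genes at an unadjusted p under 0.05). Limma-voom, upper quartile scaling, no filter and a fold threshold gave 3 and 1 each. Leaving out libraries gave 0 to 3 lower and 0 to 1 higher, with 0 and 0 without any single treatment-labelled library and without PBS replicates 2 and 3 together. In the edgeR fits without a treatment-labelled library, 7 to 8 lower and 2 to 4 higher genes had an unadjusted p under 0.05. Of all genes, 26.0%, 20.4% and 17.7% had such a p, in either direction, without replicates 1, 2 and 3 of that label. The lone PBS sample in the fit without PBS replicates 2 and 3, like that in the fit without PBS replicate 1, was assumed to vary like the other group. Across all genes 575 were called over 5 samples, 2727 with 6 libraries, 2572 by DESeq2 and 741 with the block, 280 without PBS replicate 1, 3 without PBS replicates 2 and 3, and 113, 0 and 0 without replicates 1, 2 and 3 of the AF-PTK@LEV@SPP1 label (3109 and 2699 at an unadjusted p under 0.05 where 0 were called). Fewer samples enter the fits with left-out libraries, and other causes were not tested.

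With the replicate number as a block over 6 libraries (the replicate block), edgeR called 4 lower and 0 higher, as C3 passed (adjusted p = 0.0488) and Clu did not (0.0636). Same-numbered libraries did not deviate together (correlations of -0.326, -0.282 and -0.0756). Deviations were taken from the mean of each group's own libraries, and PBS replicates 2 and 3 were nearly identical. The correlations therefore cannot decide whether the numbers pair samples.

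Of the 30 log2 fold changes, the sign turned for 5 genes, none called, and the cause was not tested. With libraries left out, C6 ranged from -0.81 to 0.60 (positive without PBS replicate 1), Masp1 from -0.25 (without PBS replicate 1) to 1.73, C9 from -0.70 to 0.80 (0.030 without AF-PTK@LEV@SPP1 replicate 1, highest without PBS replicates 2 and 3), Cd46 from -0.023 (without AF-PTK@LEV@SPP1 replicate 3) to 0.16 and C4a from -1.02 to 0.43 (positive without PBS replicates 2 and 3). C6 was also positive, at 0.12, with the replicate block. In the same fits C1s ranged from -3.14 to -2.22, C3ar1 from -1.73 to -1.26, Serping1 from -1.39 to -1.02 and Clu from 1.45 to 2.03. Depth limits Cfi, Cr2, Vsig4, C9 and the untested C5, C8a, C8b and Mbl1, which had few counts.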
